A study of Mus musculus with 7 samples.

Results

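The genes described here are 9 mouse genes of antigen presentation by major histocompatibility complex (MHC) class II, out of 21631 protein-coding genes on chromosomes 1 to 19 and X. They were taken by name: H2-Ab1, H2-Aa, H2-Eb1, H2-DMa, H2-DMb1, H2-DMb2 and H2-Oa, which lie together on chromosome 17, and Cd74 and Ciita, which lie elsewhere. The cells were leukaemia cells of BALB/c background, made from mouse bone marrow with retroviruses that carry mutant forms of CSF3R (a cytokine receptor of granulocytes) and of CEBPA (a myeloid transcription factor). Cells of both treatments carried both mutant genes. They were cultured for 48 h either with 4 nM GSK-LSD1, an inhibitor of the histone demethylase LSD1, or with the solvent DMSO. Chromatin immunoprecipitation was done for H3K4me1, H3K4me3 and H3K27Ac, with 1 library per mark and treatment and 1 input library. The marks of each treatment were combined by the authors into 1 segmentation, which gives each stretch of genome 1 of 6 chromatin states (E1 to E6). There is 1 segmentation per treatment, so differences have no replicate check, no test was made and no p-value is given. Depth is unknown because a segmentation holds no counts, and no RNA was measured.

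MHC class II molecules are pairs of an alpha and a beta chain that show peptides from endosomes to CD4+ T cells. The invariant chain, encoded by Cd74, fills the groove until H2-DM exchanges its remnant for a peptide, and H2-O restrains H2-DM. Ciita encodes the coactivator on which transcription of these genes depends. It does not bind DNA itself but docks on factors at a promoter module made of an X box, bound by RFX, and a Y box, bound by NF-Y. B cells and dendritic cells use these genes constitutively, many other cells turn them on with interferon gamma, and mature granulocytes largely lack them.

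The marks behind each state are not named in the sources used here, and the same number may stand for different marks in the 2 segmentations. E3 covered most of the genome, 73.3% in DMSO and 70.1% in GSK-LSD1, and is called background. E5 and E6 were the states of gene starts. E5 covered 1.98% of the genome in DMSO but 37.3% of 32619 annotated starts, and E6 covered 0.217% of the genome but 3.57% of starts. In GSK-LSD1 these shares were 1.53% and 19.4% for E5, and 2.08% and 23.6% for E6. E2 covered 21.3% of the genome in DMSO and 19.3% in GSK-LSD1, E4 2.76% and 2.24%, and E1 0.483% and 4.72%.

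The promoters are shown first because the states at them are compared below. Of the 9 genes, 6 had a promoter in the RefSeq table (GRCm38.p6, 250 bases before to 50 after the start): H2-Oa, H2-DMa, H2-DMb2, H2-DMb1, H2-Aa and H2-Eb1. The letters searched for were ATTGG, the Y box core (CCAAT on the other strand), and GCAAC, letters of the X box bound by RFX (GTTGC on the other strand). H2-Aa, H2-Eb1 and H2-Oa held GCAAC followed on the gene's strand by ATTGG, with 27 or 28 bases between them. Such an ordered pair, at 15 to 40 bases, with GCAAC or GTTGC first, was found in 1.09% of 32619 promoters. ATTGG or CCAAT alone was in 37.6% and GCAAC or GTTGC alone in 35.0%. Each stretch below is printed 5′ to 3′ on the gene's strand, with the matched letters in capitals.
H2-Oa: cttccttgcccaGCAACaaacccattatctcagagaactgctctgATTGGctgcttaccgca
H2-Aa: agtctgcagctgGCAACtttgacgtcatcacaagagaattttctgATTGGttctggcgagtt
H2-Eb1: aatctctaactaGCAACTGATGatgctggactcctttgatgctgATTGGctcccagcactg
H2-DMb1: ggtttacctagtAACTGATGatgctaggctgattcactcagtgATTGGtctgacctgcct
H2-DMb2: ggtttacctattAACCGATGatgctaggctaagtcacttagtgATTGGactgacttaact

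These lie at chr17:34092291-34092352 (H2-Oa, + strand), chr17:34287855-34287916 (H2-Aa, - strand), chr17:34305764-34305824 (H2-Eb1, + strand), chr17:34153087-34153146 (H2-DMb1, + strand) and chr17:34145116-34145175 (H2-DMb2, + strand). The ATTGG began 43 bases before the annotated start in H2-Oa, 48 in H2-Aa, 59 in H2-Eb1, 61 in H2-DMb1 and 90 in H2-DMb2. The promoters of H2-DMb1 and H2-DMb2, which encode the beta chains of H2-DM, held no GCAAC or GTTGC. They held AACNGATG, letters chosen after the promoters had been read, 23 bases before ATTGG. H2-Eb1 held both forms, since its AACTGATG overlaps GCAAC and lies 22 bases before ATTGG. AACNGATG on either strand was in 2.33% of promoters. Neither of the 2 promoters of H2-DMa in the table held a pair. A match of letters is a description and not a binding site.

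The classical genes differed among themselves. H2-Ab1 (chromosome 17, 34263227 to 34269418), which encodes the beta chain of H2-A, had a start-type state at its left end in both treatments, whereas its partner H2-Aa (34282744 to 34287823) and H2-Eb1 (34305867 to 34316674), the beta chain of H2-E, had none. Over H2-Ab1 the E5 segment ran from 34263001 to 34265400 in DMSO (2.4 kb) and from 34263201 to 34265200 in GSK-LSD1 (2 kb). It thus kept its number, which over the genome held for 44.4% of E5 bins, while 51.3% were E6 in GSK-LSD1. Behind it, the rest of the gene was mostly E3 in DMSO (4 kb) and E2 or E4 in GSK-LSD1 (3.2 and 1.2 kb).

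H2-Aa was wholly E3 in DMSO and wholly E2 in GSK-LSD1 (5.4 kb of bins). H2-Eb1 showed the same, with 11 kb of E3 in DMSO and 11 kb of E2 in GSK-LSD1. None of the 27 bins of H2-Aa and none of the 55 bins of H2-Eb1 had the same state in both. Both genes lay in long E3 segments, at 34265601 to 34290600 (25 kb) and 34298001 to 34328000 (30 kb). Within the class II region 96.4% of the E3 area was E2 in GSK-LSD1 and none was still E3, against 8.30% of E3 going to E2 over the genome. Counted by segments and genes, of 2659 E3 segments of 20 to 40 kb in DMSO, 1341 (50.4%) had no E3 bin left in GSK-LSD1, and of the 5424 protein-coding genes wholly E3 in DMSO, 190 (3.50%) were wholly E2.

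Neither H2-Aa nor H2-Eb1 had E5 or E6 inside the gene in either segmentation. Between them, a 1 kb E5 segment at 34296001 to 34297000 in DMSO lay within E4 in GSK-LSD1 (34294401 to 34297800), and a 1.4 kb E1 segment was present only in GSK-LSD1 (34291401 to 34292800). To the right, inside the H2-E beta family gene H2-Eb2, a 1 kb E6 segment was present only in GSK-LSD1 (34329401 to 34330400). The start of H2-Aa was thus 8.178 kb from the nearest E5 or E6 in DMSO and 22.623 kb in GSK-LSD1, and that of H2-Eb1 8.867 and 23.534 kb.

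**Figure D1:**
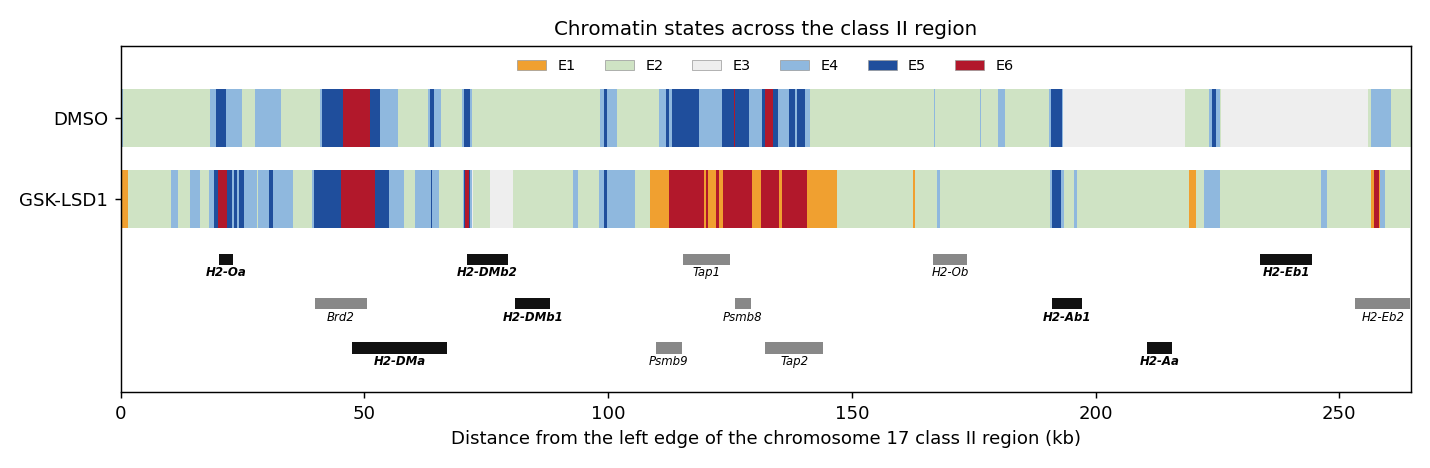
Chromatin states in DMSO (upper bar) and GSK-LSD1 (lower bar) along the 264.6 kb class II region of chromosome 17, by distance from its left edge in kb. Black bars are the genes described, grey bars other protein-coding genes, and the grey E3 blocks over H2-Aa and H2-Eb1 appear only in DMSO.

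Of the accessory genes to the left, H2-Oa, H2-DMa and H2-DMb2 had start-type chromatin inside the gene in both treatments, and H2-DMb1 had it in neither. H2-Oa (34092379 to 34095234), the alpha chain of H2-O, had 1.6 kb of E5 and no E6 inside the gene in DMSO, and 1 kb of E5 with 1.8 kb of E6 in GSK-LSD1. Its start bin was E5 in DMSO and E6 in GSK-LSD1, as for 50.5% of the 12167 starts that were E5 in DMSO. Within 20 kb of the gene, the area of E5 and E6 together was 4 kb in DMSO and 9.6 kb with the inhibitor, the largest difference among the 9 genes. Most of that difference lay in the flanks, since the area inside the gene was 1.6 and 2.8 kb. The right flank reaches the E5 and E6 block of Brd2 described next.

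H2-DMa (34119693 to 34139101 in the table), the alpha chain of H2-DM, overlaps the neighbouring gene Brd2 (34112019 to 34122814), which encodes a bromodomain protein. Its starts in the promoter table, 34122832 and 34125518, both lie to the right of Brd2. The first was E6 in both segmentations, and the second was E4 in DMSO and E5 in GSK-LSD1. The E5 and E6 block around the first start also covers much of Brd2. This block ran from 34113401 to 34125400 in DMSO and from 34111801 to 34127200 in GSK-LSD1. Further inside H2-DMa an E5 segment of 0.8 kb (34135601 to 34136400) in DMSO was 0.2 kb long in GSK-LSD1 (34135801 to 34136000), with E4 on both sides. Inside the gene as a whole E5 or E6 covered 6.6 and 7.8 kb in DMSO and GSK-LSD1.

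The genes of the 2 H2-DM beta chains differed in state. H2-DMb2 (34143229 to 34151553) had 1.2 kb of E5 over its left end in DMSO (34142601 to 34143800). In GSK-LSD1 the same 1.2 kb was E5, E6 and E5, with E6 at 34142801 to 34143600. The start that the promoter table gives for H2-DMb2, at 34145249, with the module printed above, lies inside these gene limits and was E2 in both. A stretch of E2 in the right part of the gene was E3 in GSK-LSD1 (34148001 to 34152600, 4.6 kb), the opposite direction to H2-Aa. H2-DMb1 (34153191 to 34160229) was E2 over all 37 bins in both segmentations, and its start was 9.391 kb from the nearest E5 or E6 in both.

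Cd74 (chromosome 18, 60803849 to 60812652) held no E5 or E6 in DMSO, inside the gene or within 20 kb. In GSK-LSD1 it had 1 kb of E6 inside the gene, in segments of 0.8 kb (60807601 to 60808400) and 0.2 kb (60808801 to 60809000). E1 flanked them, so that E1 and E6 covered 0.2 kb of the gene in DMSO and 5 kb after treatment, from 60806201 to 60811200. The 0.8 kb E6 segment lay over a 1.2 kb E4 segment of DMSO (60807001 to 60808200), and both gene ends were E2 in both segmentations. Of the 8229 protein-coding genes with no E5 or E6 inside in DMSO, 502 (6.10%) had some in GSK-LSD1. Among the 1698 of these that also had no E3 inside in DMSO, as Cd74, the share was 16.5%. Outside the gene, a 2.4 kb E1 segment near the right edge of the window (60830601 to 60833000) was E2 in GSK-LSD1. Closer to the gene, a 1.4 kb E1 segment was present only in GSK-LSD1 (60814401 to 60815800), where DMSO had E2.

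Ciita (chromosome 16, 10480014 to 10531064) had no E5, E6 or E4 inside the gene in either treatment. Its alternative promoters, used by dendritic cells, B cells and interferon-treated cells, lie at the end where transcription begins. The gene table gives no strand, and the left end is taken as that end from general knowledge of the locus. The 10.2 kb around that end (5 kb either side) were wholly E2 in DMSO and wholly E3 in GSK-LSD1. E2 ran from the left end over 44.6 kb of the gene in DMSO, while in GSK-LSD1 the first 18.4 kb were E3 and E2 began at 10498401. This was the reverse of H2-Aa and H2-Eb1. Of 5343 gene ends that were wholly E2 over the same distance in DMSO, 791 (14.8%) were wholly E3 in GSK-LSD1. A 1.2 kb E1 segment in the right part of the gene (10524601 to 10525800) had the same limits in both.

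All E5 and E6 in the Ciita window lay to the right of the gene, over Dexi and Clec16a, the next genes on that side. It amounted to 7.2 kb in DMSO and 11 kb after treatment, and its nearest edge was 7.937 and 8.137 kb from the right end of Ciita. The genes with the most similar window make-up, measured as the sum of absolute differences over 6 states and both segmentations per 100 kb of window, were Mybpc2 (20.5 kb), Mapt (20.8 kb) and Ift140 (22.0 kb). They share with Ciita a window that was mostly E2 in DMSO and in which E3 took 40.3 to 44.0 kb per 100 kb in GSK-LSD1, against 42.1 for Ciita.

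**Figure D2:**
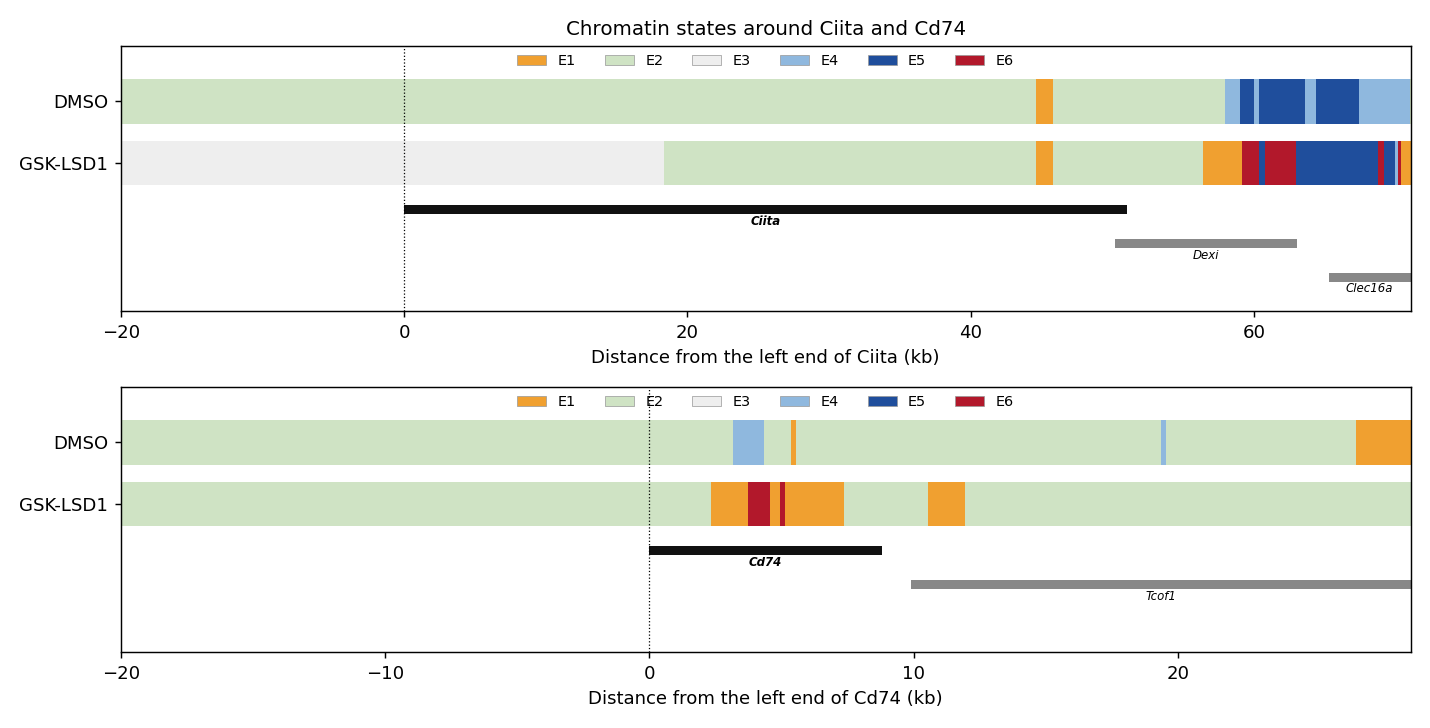
Chromatin states around Ciita (upper panel) and Cd74 (lower panel) by distance in kb from the left end of each gene (dotted line), with DMSO above GSK-LSD1. The left 18.4 kb of Ciita are E3 only in GSK-LSD1, E5 and E6 lie beyond its right end, and the 1 kb of E6 inside Cd74 is present only in GSK-LSD1.

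Taken over the window of each gene (the gene and 20 kb either side), E5 and E6 together were larger in GSK-LSD1 by at least 1 kb at 5 of the 9 genes. These were H2-Oa (4 and 9.6 kb), H2-DMa (14 and 17.6 kb), H2-DMb2 (4.4 and 5.6 kb), Ciita (7.2 and 11 kb) and Cd74 (0 and 1 kb). The same held for 57.2% of the 21631 protein-coding genes, so the share among the class II genes was near the background. At H2-Aa the area was smaller (3.4 and 2 kb), a difference of at least 1 kb that 0.855% of all genes had in this direction. All of this area lay in the flanks, at H2-Ab1 and in the E5 segment between H2-Aa and H2-Eb1. H2-DMb1 (2.6 and 2 kb), H2-Ab1 (2.4 and 2 kb) and H2-Eb1 (1 and 1 kb) differed by less than 1 kb. Counting a difference of a single bin, the area was smaller at 3 of 9 (H2-Aa, H2-DMb1 and H2-Ab1), against 4.43% of all genes. The E5 segment of H2-Ab1 lies in the windows of both H2-Ab1 and H2-Aa. The median change was 1 kb over the 9 genes and 1.4 kb over all genes. Inside the genes alone, 3 of 9 were larger (H2-Oa, H2-DMa and Cd74), against 32.3% of all genes. Windows on chromosome 17 overlap, so neighbouring genes share bins. The E5 and E6 block around Brd2 and the first H2-DMa start enters the windows of H2-Oa, H2-DMa and H2-DMb2. These differences are therefore not separate events. H2-DMb2 met the call only through the right edge of this block, and inside the gene it had 0.6 kb in both.

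E1 and E6 together, which both covered more of the genome in GSK-LSD1, were larger by at least 1 kb at 7 of the 9 genes, against 57.9% of all genes, and smaller at none, against 0.541%. The change was 7.6 kb at Ciita, 4 kb at Cd74, 3.4 kb at H2-Eb1, 3.2 kb at H2-Oa, 2.2 kb at H2-DMa, 1.8 kb at H2-DMb2 and 1.4 kb at H2-Aa. H2-Ab1 had 0 kb in both segmentations and H2-DMb1 had 0 and 0.8 kb. The median change was 2.2 kb over the 9 genes and 2.6 kb over all genes. Counted inside the genes alone, 3 of 9 were larger (41.2% of all genes): Cd74, H2-Oa and H2-DMa.

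The area of E3 in the windows differed among the 9 genes. It was smaller by at least 1 kb in GSK-LSD1 at H2-Ab1, H2-Aa and H2-Eb1 (3 of 9, against 28.3% of all genes). It was larger at Ciita, H2-DMa, H2-DMb2 and H2-DMb1 (4 of 9, against 19.5%), and H2-Oa and Cd74 had no E3 in either. These are not separate events, since the windows of H2-DMa, H2-DMb2 and H2-DMb1 hold the same 4.8 kb of E3. Those of H2-Ab1, H2-Aa and H2-Eb1 also share E3 segments of DMSO. Inside the genes, E3 was smaller at H2-Ab1 (4 and 0 kb), H2-Aa (5.4 and 0 kb) and H2-Eb1 (11 and 0 kb). It was larger there at Ciita (0 and 18.4 kb) and H2-DMb2 (0 and 3.8 kb), while H2-DMa and H2-DMb1 had none. Of all protein-coding genes 25.1% were wholly E3 in DMSO, as H2-Aa and H2-Eb1 were.

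**Figure D3:**
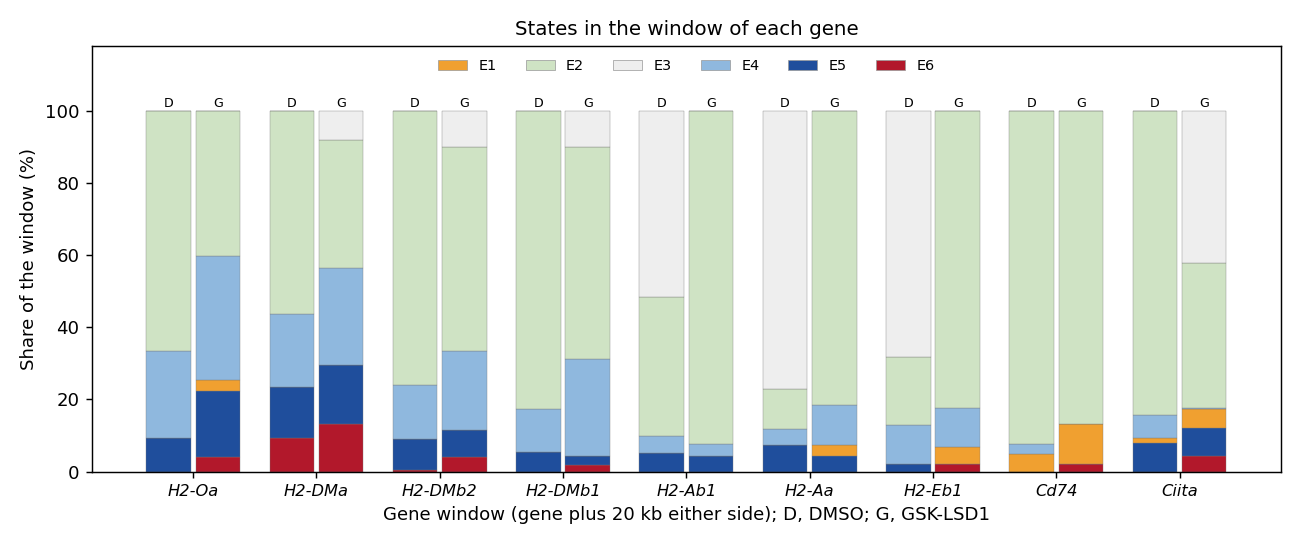
Share (%) of each gene window taken by each state, with DMSO (D) beside GSK-LSD1 (G). The E3 share shrinks to 0 at H2-Ab1, H2-Aa and H2-Eb1 and appears in GSK-LSD1 at Ciita, H2-DMa, H2-DMb2 and H2-DMb1.

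**Figure D4:**
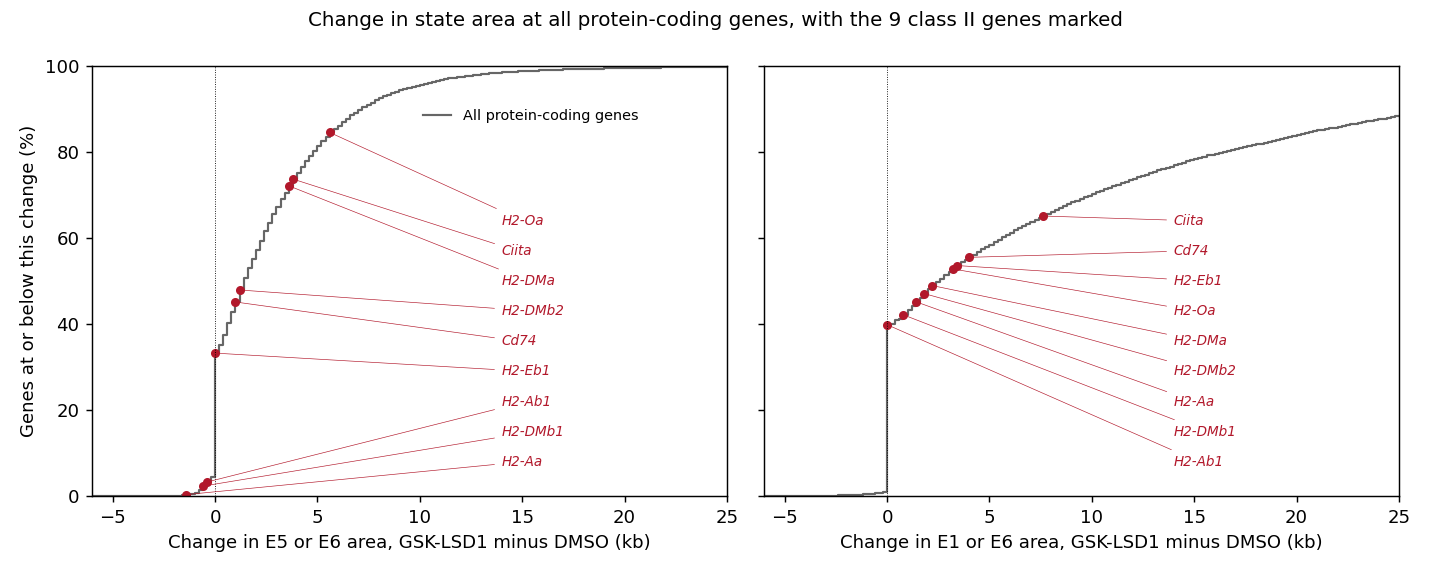
Cumulative share (%) of all 21631 protein-coding genes by change in E5 or E6 area (left) and E1 or E6 area (right) in kb, with the class II genes as red points. On the left, H2-Aa (-1.4 kb), H2-DMb1 (-0.6 kb) and H2-Ab1 (-0.4 kb) lie at the low end, and the other class II genes lie between 0 and 5.6 kb.

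As one locus, the region from 20 kb left of H2-Oa to 20 kb right of H2-Eb1 (34072201 to 34336800, 264.6 kb) had the same state in 631 of 1323 bins (47.7%). Leaving out bins that were background in both, the genome value was 45.3% and that of the region 47.7%. E5 and E6 together covered 37.8 kb of it with DMSO and 49.4 kb with the inhibitor. These were 14.3% and 18.7% of the region, against 2.20% and 3.61% of the genome. E5 alone went the other way, from 30.4 to 15.8 kb, and E6 from 7.4 to 33.6 kb. Of the E5 area in DMSO, 62.5% was E6 in GSK-LSD1 (51.3% over the genome), and E1 went from 0 to 19.6 kb.

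Most of this E1 and E6 lay over genes of the class I pathway that sit between H2-DMb1 and H2-Ob. Psmb9 and Psmb8 encode subunits of the immunoproteasome, and Tap1 and Tap2 the peptide transporter. Over them, one unbroken stretch of E1 and E6 covered 34180801 to 34219200 in GSK-LSD1 (38.4 kb), where DMSO had E5, E4, E2 and 1.8 kb of E6. E6 inside the genes went from 0 to 2.8 kb at Psmb9, from 0 to 7 kb at Tap1, from 0.2 to 3.6 kb at Psmb8 and from 1.6 to 8 kb at Tap2. No class II gene itself lay in this stretch. In the block around H2-Aa and H2-Eb1 (34276001 to 34336800), E1 and E6 covered 0 and 3.4 kb in DMSO and GSK-LSD1, and in the block of H2-Ob and H2-Ab1 0 and 0.4 kb. Without the Psmb9 to Tap2 block, the gain in E1 and E6 share of the region was 4.42 percentage points in place of 17.3. The H2-O beta chain gene H2-Ob was E2 with 0.2 kb of E4 in DMSO and 0.6 kb in GSK-LSD1, and the pseudogenes H2-Pa and H2-Pb were E2 in both. The non-coding gene BC051537, which overlaps H2-Oa and reaches further left, had 6.8 kb of E2 in DMSO and 4.4 kb after treatment, and Gm20506 was E2 with 1.6 kb of E4 in DMSO and wholly E2 in GSK-LSD1.

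States differed among the starts with a printed module. In DMSO the start bin was E5 at H2-Oa, E2 at H2-DMb1 and at the 34145249 start of H2-DMb2, and E3 at H2-Aa and H2-Eb1. In GSK-LSD1 it was E6 at H2-Oa and E2 at the other 4. A start-type state was thus found at 1 of 5 in each segmentation, and at 1 of the 3 with the ordered pair. Over all promoters the share was 40.9% in DMSO and 43.1% in GSK-LSD1. H2-DMb1 and H2-DMb2 are among the 5 only through letters chosen after the promoters had been read. H2-Ab1, with E5 at its left end in both, had no promoter to search. The set is therefore too small and incomplete for a comparison with all promoters. By gene ends, 4 of the 9 genes had E5 or E6 at an end in DMSO and 4 in GSK-LSD1, namely H2-Oa, H2-DMa, H2-DMb2 and H2-Ab1. The ends counted for H2-DMa and H2-DMb2 are not starts of the promoter table, and that of H2-DMa lies inside Brd2. Over all protein-coding genes 51.7% had one in DMSO and 54.8% in GSK-LSD1.

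Genes that act with class II molecules were described in the same way. Among promoter factors, 7 of 7 had E5 or E6 inside the gene in DMSO (62.0% of all protein-coding genes, and 63.3% in GSK-LSD1), and the window area was larger in GSK-LSD1 by at least 1 kb at 6 of 7 (median change 4 kb). Creb1, a factor of the X box, had 11 and 22 kb, and Rfx5, an RFX subunit, 8 and 15.4 kb. For endosomal processing the count was 6 of 6 (median 5.2 kb), with the asparaginyl endopeptidase gene Lgmn at 3.8 and 21.8 kb and the cathepsin gene Ctsd at 12.2 and 25.4 kb. For the route from interferon gamma to Ciita it was also 6 of 6 (median 8.6 kb), with the kinase gene Jak1 at 10.8 and 25.8 kb and the transcription factor gene Irf1 at 10.4 and 20.2 kb. The background for these counts of window area is the 57.2% given above. The class II turnover gene Cd83 had 0.8 and 5 kb, and Marchf1, a ubiquitin ligase of class II, 3.4 and 4 kb. H2-Ob had 2.4 and 2 kb, and H2-Eb2 0 and 1 kb. The class I list was larger at 5 of 5 (median 5.2 kb), led by Tapbp (26.2 and 36 kb), which lies outside the region, and Tap2 (17.4 and 23 kb). Psmb9, Tap1, Psmb8 and Tap2 lie side by side and their windows share most of this area. They are therefore not separate events, and the count cannot be set against a share per gene.

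Markers of cell types that carry class II molecules constitutively were mixed. The background for the counts below is 62.0% of all genes with E5 or E6 inside the gene in DMSO and 63.3% in GSK-LSD1. For a larger window area it is 57.2%. Of 5 B cell markers, 2 had E5 or E6 inside the gene in each segmentation, and Cd79b and Ms4a1 had none in their windows in either. Pax5, a B cell transcription factor, had 1.6 and 2.8 kb, and Cd79a, a chain of the B cell receptor complex, 14.6 and 15.4 kb. Window areas of the B cell list ranged from 0 to 14.6 kb in DMSO and from 0 to 15.4 kb in GSK-LSD1, and 1 of 5 was larger by at least 1 kb. Of 7 dendritic cell markers, 3 had start-type chromatin inside the gene in each, 5 had a larger window area, and Cd209a had none. Zbtb46 had 14.4 and 20.2 kb and Batf3 1.6 and 6.2 kb. Their windows ranged from 0 to 14.4 kb in DMSO and from 0 to 20.2 kb in GSK-LSD1. Of 6 macrophage markers, 3 had E5 or E6 inside the gene in DMSO and 4 in GSK-LSD1. A larger window area was found at 4, with Fcgr1 at 15.6 and 32.2 kb and Cd14 at 8.4 and 21 kb. The range was 0 to 15.6 kb and 0 to 32.2 kb, and Csf1r and Cx3cr1 had none. For the labelled myeloid leukaemia cells, 5 of 8 markers had E5 or E6 inside the gene in DMSO and 7 in GSK-LSD1. The window area was larger at 7 of 8, and Cebpe (6.2 and 17.8 kb) and Cd34 (5 and 14 kb) differed most. The part of other cell types in the class II states was not tested.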

How the data were processed

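Per the labels, the authors combined 3 ChIP-seq libraries of each treatment into 1 deposited file of segments, each with a state label (E1 to E6) and no count or other score. Per the submitters' processing notes, reads were handled with Bowtie and the mm10 (GRCm38) build. Not given in the sources used here are the segmentation tool, its thresholds, the use of the input and whether both treatments were fitted together. A state is a discrete label without a score, and unequal depth or enrichment between libraries can move its limits. BALB/c and the C57BL/6 assembly carry different class II alleles, and mapping at these polymorphic genes was not tested.

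Segments were expanded to 200 bp bins with Python 3.11.15 and numpy 2.4.6 on chromosomes 1 to 19 and X. Genes came from RefSeq (GRCm38.p6), which gave no strand, and strands from its promoter table, which was searched outside chromosome 18. A window was the gene plus 20 kb either side, rounded out to bins. A difference of at least 1 kb was called, and called shares over all genes are given as background. The area calculation was tested on simulated data. All 9 genes were named, with every gene of the chromosome 17 region, the 2 largest changes and the genes without E5 or E6 of each companion list, and the 3 genes nearest to Ciita. A listed B cell marker is not reported here. Members and lists were chosen with earlier results of these data known. Segment-length, gene-end and AACNGATG backgrounds and the region's blocks were added after the states were seen. Alternatives covered the flank, short segments, the states and the call.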

Additional observations from a re-analysis of the deposited data

How the results depend on the processing

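The count of genes with more E5 or E6 area (5 of 9) was 3 with 5 kb flanks, 3 with the gene only, 3 with single-bin segments merged into the segment before, 3 with a call at 2 kb, and 2 with E5 alone. It was 6 with 50 kb flanks. With 5 kb flanks or none Ciita and H2-DMb2 left the count, since their differences lay in the flanks. With merged segments H2-DMb2 and Cd74 both had 0.8 kb and fell under the call. With E5 alone the change was -0.6 kb at H2-DMb2 and -0.2 kb at Ciita, and that of the region's share was -5.52 percentage points in place of 4.38, since E5 that became E6 is then a loss. The count for E1 or E6 (7 of 9) was 4 with 5 kb flanks, 3 with the gene only, 9 with 50 kb flanks, 8 with merged segments, 5 with E1 alone and 6 with E6 alone. With the gene only, 32.3% of all protein-coding genes had more E5 or E6 area and 41.2% more E1 or E6 area. For the other alternatives no share over all genes is given here. Those counts therefore cannot be read as particular to the class II genes. Without the Psmb9 to Tap2 block, an alternative chosen after seeing the data, the gain in E1 or E6 share of the region was 4.42 percentage points in place of 17.3. Of 117 single-gene values under an alternative, 63 moved by less than 1 kb, 52 moved further and 2 differences of at least 1 kb, those given above for E5 alone, changed direction. The 63 include every single-gene value without the Psmb9 to Tap2 block. Most windows do not reach that block, so those values could hardly move. Among the 52, H2-DMb1 also changed sign, from -0.6 to 7.6 kb with 50 kb flanks. Depth could not be assessed, and each treatment has 1 segmentation.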

Other observations

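AACNGATG followed by ATTGG was found in 7 of 32619 promoters, with letters chosen after the class II promoters had been read. Class II genes held 4 of the 7: H2-DMb1, H2-DMb2, H2-Eb1 and H2-Eb2, each with 22 or 23 bases between the matches. The others were BC051142, also on chromosome 17 and with 23 bases between, Gm35444 (39 bases) and Scgb2b20 (33 bases).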
